A study of Mus musculus with 7 samples.

Results

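The data described here are the read counts of 10 interferon-inducible GTPases in muscularis macrophages of the mouse small intestine after experimental stroke. They are 8 guanylate-binding proteins (Gbp2 to Gbp9) and 2 immunity-related GTPases (Iigp1 and Irgm1). The members were given by name, and all 10 of 10 were found among the 17209 genes of the deposited table. Macrophages were sorted as CX3CR1-GFP+ cells out of the muscle layer peeled from small intestines. There were 3 libraries after pMCAO surgery (pMCAO 1 to 3), and 4 libraries after sham surgery (Sham 1 to 4), all taken 24 h after the operation. The series title calls the pMCAO procedure stroke. Both groups are labelled with the C57BL6/J genotype, which does not name the GFP allele, and share the GFP sort, while age and sex are not stated. The sham titles speak of biological replicates and the pMCAO titles of replicates only, the description of pMCAO 3 names a pool, and the number of animals behind a library is not stated. The error behind each p-value is therefore the spread between the libraries, part of which may be technical.

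Guanylate-binding proteins are large GTPases that macrophages make in quantity once interferon-gamma has signalled through its receptor and the JAK kinases. They gather on bacteria and on the vacuoles of parasites, break these membranes open and expose microbial products to the cytosolic inflammasomes. Immunity-related GTPases act on the same vacuoles. Their effectors, such as Iigp1, coat and disrupt the vacuole, and their regulators, such as Irgm1, keep the effectors inactive on the membranes of the host cell. In the mouse most Gbp genes lie in clusters on chromosomes 3 and 5.

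Counts assigned to listed genes were 12685941, 21680302 and 18779472 in pMCAO 1 to 3, and 18873893 to 34432716 in the sham libraries. All 12 genes used as markers of muscularis macrophages were detected in every library, with a summed level of 13521 to 17067 CPM (counts per M library counts, after TMM scaling) after pMCAO and 13328 to 19588 CPM after sham surgery. The libraries also differed in sex-linked transcripts, which were looked at after the values were seen. Xist, the RNA of the inactive X chromosome, was at 6065 CPM in pMCAO 1, 1.37 CPM in pMCAO 2 and 5090 CPM in pMCAO 3, against 1569 to 5403 CPM in sham libraries. The summed level of 4 Y-linked genes was 2.39, 569.5 and 227 CPM in pMCAO 1 to 3, and 331, 10.6, 227 and 0.687 CPM in Sham 1 to 4. Thus pMCAO 2 stands apart as the library nearly without Xist, and pMCAO 3, Sham 1 and Sham 3 hold both kinds of transcript. The number of these GTPases called was 0 with all libraries and without any single one, a count that could not fall. It therefore does not show whether pMCAO 2 matters. The median log2 change of the members was -0.34 with all libraries and -0.06 without pMCAO 2. Mitochondrial ribosomal RNA took 12.6%, 8.26% and 8.84% of the counts in pMCAO 1 to 3, and 5.82%, 2.95%, 3.23% and 2.42% in Sham 1 to 4.

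None of the 10 GTPases passed the test after pMCAO, and the libraries of both groups overlapped for each of them. In bulk libraries such as these, fewer cells of a type and less RNA per cell cannot be told apart. By the edgeR quasi-likelihood test over all genes 0 of 10 members had an adjusted p under 0.05, where 0.0988% of all genes did, and 0 of 10 had an unadjusted p under 0.05, where 13.4% of all genes did. DESeq2 and limma-voom also called 0 of 10, where they called 2.97% and 0.203% of the genes with an adjusted p, and each had 0 of 10 members at an unadjusted p under 0.05. An FDR under 0.05 in the authors' deposited table was found for 0 of 10 members, against 0.0814% of its genes. Separate ranges of pMCAO and sham libraries were seen for 0 of 10 members and for 12.6% of all genes. The fitted level was lower after pMCAO for 8 of 10 members, as for 51.4% of all genes, and the median log2 change was -0.34, against -0.02 over all genes. That median rested on single libraries. It was -0.64 without pMCAO 1, -0.06 without pMCAO 2, -0.19 without pMCAO 3 and -0.03 without Sham 1. The number of members with a lower fitted level was 10 of 10 without pMCAO 1, 6 without pMCAO 2 and 5 without Sham 1.

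**Figure D1:**
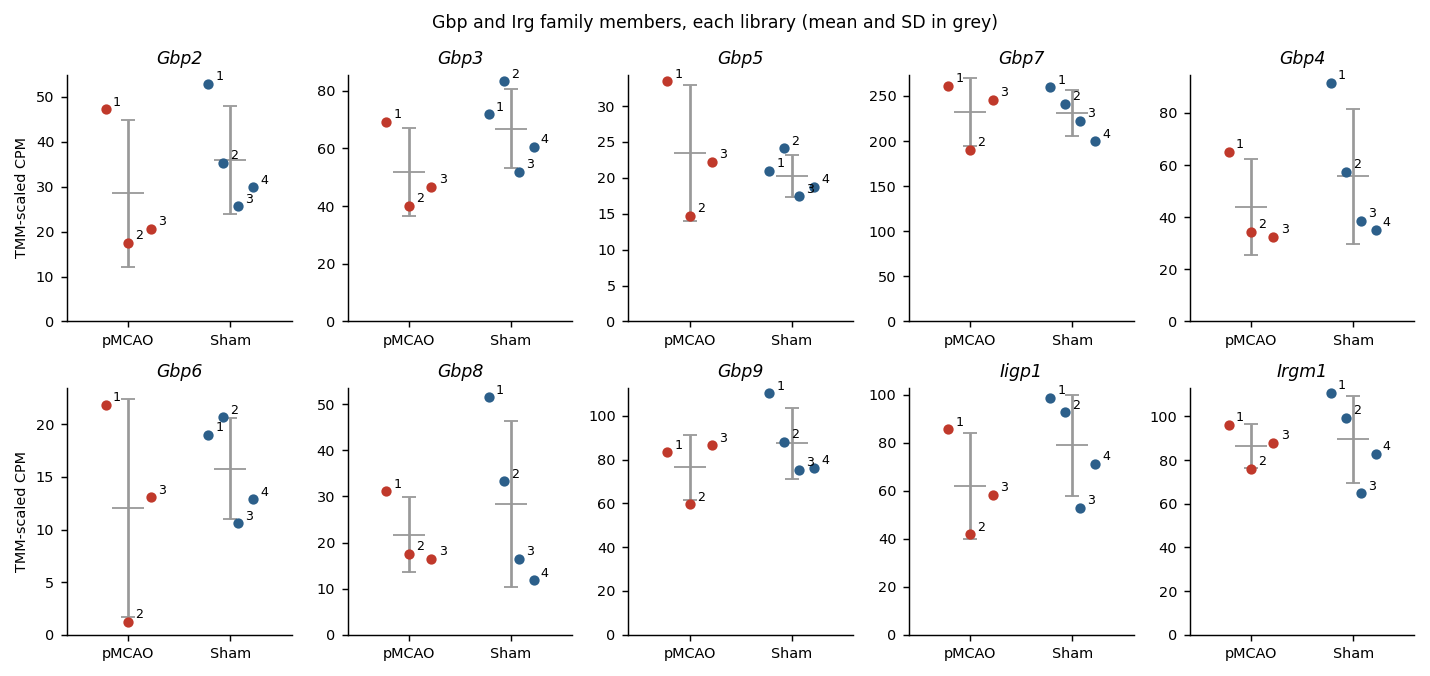
TMM-scaled CPM of each member (vertical axes, from 0) in the 3 pMCAO libraries (red) and the 4 sham libraries (blue), with the replicate number beside each point and the group mean and SD in grey. The 2 groups overlap in every panel, pMCAO 1 is the highest of its group in 9 of 10 panels, and Gbp6 in pMCAO 2 lies near 0 at 1.22 CPM.

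The members on chromosome 3 were Gbp5 (142493978 to 142522344), Gbp7 (142530342 to 142550149), Gbp3 (142560026 to 142573209) and Gbp2 (142620602 to 142638008), all on the plus strand and in this order, by GENCODE M21 on GRCm38. Gbp2b, the gene between Gbp3 and Gbp2, is described with the relatives below. Gbp2, which is recruited to parasite vacuoles and to bacteria in mouse cells, was at 47.3, 17.6 and 20.6 CPM in pMCAO 1 to 3, and 52.9, 35.3, 25.6 and 29.9 CPM in Sham 1 to 4. The highest library of each group lay far above the others, so that pMCAO 1 exceeded 3 of the 4 sham libraries, whereas pMCAO 2 and pMCAO 3 lay below all of them. Its log2 change was -0.34 (SE 0.34, 95% interval -1.08 to 0.40, edgeR adjusted p = 0.708). The change was -0.91 without pMCAO 1 (edgeR adjusted p = 0.327), but -0.08 without pMCAO 2, -0.15 without pMCAO 3 and -0.09 without Sham 1.

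Gbp3 was at 69.1, 40.0 and 46.7 CPM in pMCAO 1 to 3, and 71.8, 83.3, 51.9 and 60.6 CPM in Sham 1 to 4. Here again pMCAO 1 lay among the sham libraries and the other pMCAO libraries just under them. The log2 change was -0.37 (SE 0.23, 95% interval -0.87 to 0.14), and its adjusted p of 0.517 by edgeR was the smallest of the 10 members. The change was -0.63 without pMCAO 1, -0.21 without pMCAO 2 and -0.24 without Sham 2. Gbp5, which is linked to inflammasome activation, had 33.4, 14.7 and 22.2 CPM in pMCAO 1 to 3, and 20.9, 24.1, 17.4 and 18.7 CPM in Sham 1 to 4. The pMCAO libraries thus held both the highest and the lowest value of the gene. Its log2 change of 0.20 (SE 0.29, edgeR adjusted p = 0.807) was positive over all libraries, 0.45 without pMCAO 2 and -0.14 without pMCAO 1.

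Gbp7 was the most abundant member, at 261, 190.2 and 246 CPM in pMCAO 1 to 3, and 259, 242, 223 and 199.7 CPM in Sham 1 to 4. The pMCAO libraries spanned the sham range, and the levels were even, with a highest-to-lowest ratio of 1.37 after pMCAO and 1.299 after sham surgery. The log2 change was 0.01 (SE 0.17, 95% interval -0.36 to 0.38, edgeR adjusted p = 0.989), and it was -0.12 without scaling factors and -0.08 to 0.14 with a library left out. Of the 100-base windows of its annotated transcripts 10.01% also occur in other genes, mainly in the pseudogene Gm43802, whose exons overlap it.

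Windows from 250 bases before to 50 bases after an annotated RefSeq start were at hand for 5 of the 10 members (Gbp2, Gbp3, Gbp5, Gbp7 and Irgm1, 6 windows in all). Of these, 4 are printed, because interferon signalling is known to act through short promoter elements. Whether such elements bear on the levels or the library order of the members was not tested. Capitals mark matches to the core of the interferon-stimulated response element (GAAANNGAAA, or TTTCNNTTTC on the other strand), bound by IRF factors, and to the core of the gamma-activated sequence (TTCNNNGAA, the same on both strands), named for its response to interferon-gamma.
Gbp2 (RefSeq, GRCm38.p6, chr3:142620413-142620712, plus strand): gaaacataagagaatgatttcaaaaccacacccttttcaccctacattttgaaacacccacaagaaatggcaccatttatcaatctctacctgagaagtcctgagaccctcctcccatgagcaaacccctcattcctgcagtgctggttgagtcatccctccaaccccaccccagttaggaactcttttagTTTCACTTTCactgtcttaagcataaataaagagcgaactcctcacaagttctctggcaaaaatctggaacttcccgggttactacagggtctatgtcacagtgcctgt
Gbp5 (RefSeq, GRCm38.p6, chr3:142496684-142496983, plus strand): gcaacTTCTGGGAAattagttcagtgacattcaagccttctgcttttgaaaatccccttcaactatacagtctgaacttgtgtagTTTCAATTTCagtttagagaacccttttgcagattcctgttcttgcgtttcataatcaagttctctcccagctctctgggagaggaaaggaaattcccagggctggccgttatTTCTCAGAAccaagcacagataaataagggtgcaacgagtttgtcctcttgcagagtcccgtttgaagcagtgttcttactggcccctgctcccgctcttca
Gbp7 (RefSeq, GRCm38.p6, chr3:142530086-142530385, plus strand): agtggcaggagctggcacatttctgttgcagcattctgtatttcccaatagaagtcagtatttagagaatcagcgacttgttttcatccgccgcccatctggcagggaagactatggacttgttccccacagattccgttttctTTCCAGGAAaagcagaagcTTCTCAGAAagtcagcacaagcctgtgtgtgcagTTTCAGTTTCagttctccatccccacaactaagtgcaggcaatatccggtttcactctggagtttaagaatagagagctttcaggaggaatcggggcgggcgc
Irgm1 (RefSeq, GRCm38.p6, chr11:48871371-48871670, minus strand): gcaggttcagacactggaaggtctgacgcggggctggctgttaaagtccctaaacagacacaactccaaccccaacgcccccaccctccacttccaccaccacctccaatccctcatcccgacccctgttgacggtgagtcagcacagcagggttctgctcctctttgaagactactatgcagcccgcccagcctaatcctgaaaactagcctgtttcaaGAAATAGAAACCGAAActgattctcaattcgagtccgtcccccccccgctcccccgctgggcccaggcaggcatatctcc
All 4 windows hold a response element core, as does the upstream window of Gbp3, with overlapping matches that begin 45 and 39 bases before its start, while the downstream window of Gbp3 has a match to neither. That core occurs in 3.44% of all 32851 windows of this length in the table. The first base of the match lies 59 bases before the start in Gbp2, 165 bases before it in Gbp5 and 53 bases before it in Gbp7. Irgm1 has a pair of overlapping matches that begin 30 and 24 bases before the start. Gamma-activated sequence cores are in the windows of Gbp5 (245 and 52 bases before the start) and Gbp7 (106 and 87 bases before it) and in no other member window, against 8.30% of all windows. Both elements together occur in 0.454% of all windows. A match describes letters and was not tested as a site. Gbp5 and Gbp7, which hold both elements, had highest-to-lowest ratios of 2.27 and 1.37 over the pMCAO libraries.

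The members on chromosome 5 lie on the minus strand, Gbp8 (105014150 to 105139540), Gbp9 (105077630 to 105139539) and Gbp4 (105115767 to 105139586) in a block of genes with overlapping exons, and Gbp6 (105270702 to 105293698) further on. Gbp4 was at 65.1, 34.5 and 32.4 CPM in pMCAO 1 to 3, and 91.5, 57.5, 38.6 and 35.2 CPM in Sham 1 to 4. In both groups the first library was the highest, pMCAO 1 lay inside the sham range, and pMCAO 2 and pMCAO 3 lay just under Sham 4. The log2 change was -0.34 (SE 0.34, edgeR adjusted p = 0.697). It was -0.73 without pMCAO 1, -0.19 without pMCAO 2, -0.16 without pMCAO 3 and 0.01 without Sham 1.

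Gbp8 had the widest spread of all members among sham libraries. It was at 31.1, 17.6 and 16.5 CPM in pMCAO 1 to 3, and 51.5, 33.3, 16.5 and 11.8 CPM in Sham 1 to 4. Sham 1 exceeded Sham 4 by a factor of 4.36, and every pMCAO value lay inside the sham range. Its log2 change of -0.38 (SE 0.44, 95% interval -1.33 to 0.56, edgeR adjusted p = 0.743) became 0.08 without Sham 1 and -0.19 with limma-voom. It was -0.73 without pMCAO 1, -0.25 without pMCAO 2, -0.22 without pMCAO 3 and -0.64 without Sham 4. Gbp9 was more even, at 83.4, 59.6 and 86.5 CPM in pMCAO 1 to 3, and 110.3, 88.1, 75.4 and 76.2 CPM in Sham 1 to 4. Only pMCAO 2 lay outside the sham range. The log2 change was -0.19 (SE 0.20, 95% interval -0.63 to 0.24, edgeR adjusted p = 0.720). It was -0.04 without pMCAO 2, -0.06 without Sham 1, -0.29 without pMCAO 3 and -0.32 without scaling factors.

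Gbp6 differed from the other 9 members in a single library. It was at 21.9, 1.22 and 13.1 CPM in pMCAO 1 to 3, and 19.0, 20.7, 10.6 and 12.9 CPM in Sham 1 to 4. The value in pMCAO 2 came from 26 reads, against 210 to 481 reads in the other 6 libraries, and the next lowest level was higher by a factor of 8.65. The highest value of the gene was also in a pMCAO library. Of 11588 genes with a mean of at least 5 CPM, 7 had such a low value in pMCAO 2 (lowest of all libraries and at least 8 times below the next), against 0 to 2 in any other library. Xist and Kntc1, a kinetochore gene, were among these 7, which were looked at after the values were seen. The log2 change of Gbp6 was -0.40 (SE 0.67, 95% interval -1.88 to 1.09, edgeR adjusted p = 0.841) over all libraries and 0.14 (adjusted p = 0.872 by edgeR) without pMCAO 2. On all 7 libraries limma-voom gave -1.37 (SE 0.68, limma-voom adjusted p = 0.365), and edgeR gave -1.15 without pMCAO 1 and -0.24 without Sham 2. Counts of Gbp6 are uncertain, because 64.5% of its 100-base transcript windows recur in other genes, mostly in Gm43302, a gene that overlaps it, and in Gbp10. Neither was analysed here. The same share was 4.39% for Gbp8, 1.65% for Gbp9 and 1.64% for Gbp4, and 0.69% or less for Gbp2, Gbp3, Gbp5, Iigp1 and Irgm1.

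Iigp1 (chromosome 18, 60376027 to 60392634, plus strand), an effector that coats parasite vacuoles, was at 85.6, 41.9 and 58.3 CPM in pMCAO 1 to 3, and 98.7, 92.8, 52.9 and 71.2 CPM in Sham 1 to 4. Sham 1 and Sham 2 were high, pMCAO 1 lay next to them, and pMCAO 2 was the lowest. Its log2 change was -0.35 (SE 0.26, 95% interval -0.92 to 0.22, edgeR adjusted p = 0.590), -0.66 without pMCAO 1, -0.13 without pMCAO 2 and -0.23 without Sham 1. Irgm1 (chromosome 11, 48861968 to 48871683, minus strand), the regulator, was at 96.0, 76.0 and 87.9 CPM in pMCAO 1 to 3, and 110.8, 99.4, 64.9 and 82.8 CPM in Sham 1 to 4. All pMCAO values lay inside the sham range, and they were the most alike of any member in that group, with a ratio of 1.26. The log2 change of -0.05 (SE 0.20, 95% interval -0.48 to 0.39, edgeR adjusted p = 0.947) was 0.04 without pMCAO 2, and ran from -0.17 to 0.07 with any 1 library left out.

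**Figure D2:**
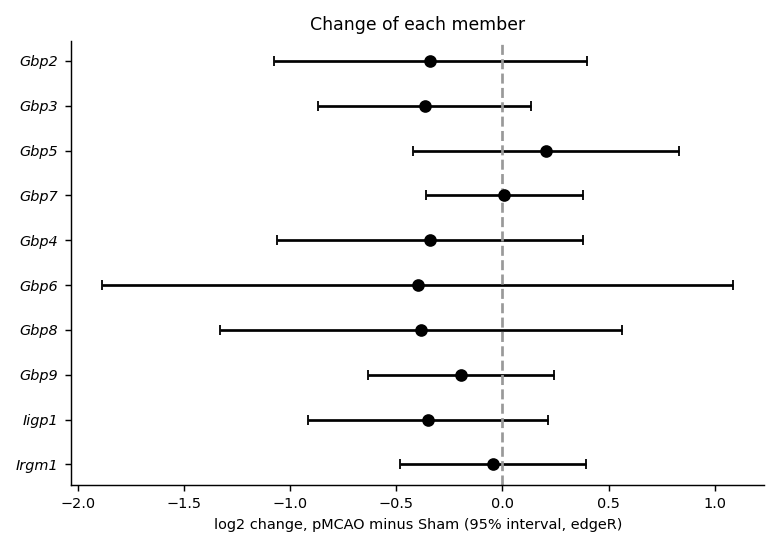
Log2 change of each member, pMCAO minus sham (horizontal axis), with its 95% interval from the edgeR fit over all genes. Every interval includes 0, from the narrow one of Gbp7 (-0.36 to 0.38) to the wide one of Gbp6 (-1.88 to 1.09).

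A p above the threshold does not show equal levels, so the intervals set the limits. The lower end of the interval lay above -1, a halving, for 6 of 10 members, and the upper end below 1, a doubling, for 9 of 10. Gbp2, Gbp4, Gbp6 and Gbp8 were the 4 whose interval reached below a halving, and Gbp6 alone had an interval that reached above a doubling. In the authors' deposited table the members' log2 changes ran from -0.62 (Gbp8, FDR 0.444) to 0.13 (Gbp5, FDR 0.878), with the smallest FDR for Gbp3 (0.344).

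The order of the libraries was alike for most members. Within the pMCAO group pMCAO 1 was the highest library for 9 of 10 members, the exception being Gbp9, and pMCAO 2 the lowest for 8, the exceptions being Gbp4 and Gbp8. Among sham libraries Sham 1 was the highest for 7 members and Sham 2 for the other 3 (Gbp3, Gbp5 and Gbp6), while Sham 3 was the lowest for 7 and Sham 4 for the other 3 (Gbp4, Gbp7 and Gbp8). Summed over the family the level was 794, 493 and 630.0 CPM in pMCAO 1 to 3, and 887, 776, 576 and 599 CPM in Sham 1 to 4. On the log2 scale, centred on each gene, the mean over members was 0.40, -0.70 and -0.16 in pMCAO 1 to 3, and 0.54, 0.34, -0.25 and -0.16 in Sham 1 to 4. Without Gbp6 the value in pMCAO 2 was -0.47, still the lowest of the 7. In pMCAO 2, 8 of 10 members lay below every sham library, where 25.8% of all genes did, and in pMCAO 3 there were 3 of 10, where 29.0% of all genes did. In pMCAO 1 the count was 0 of 10, where 26.6% of all genes lay below, and 3 of 10 lay above every sham library, where 24.7% of all genes did. The members of a library share its cells and its depth, so these counts describe single libraries and not the groups.

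**Figure D3:**
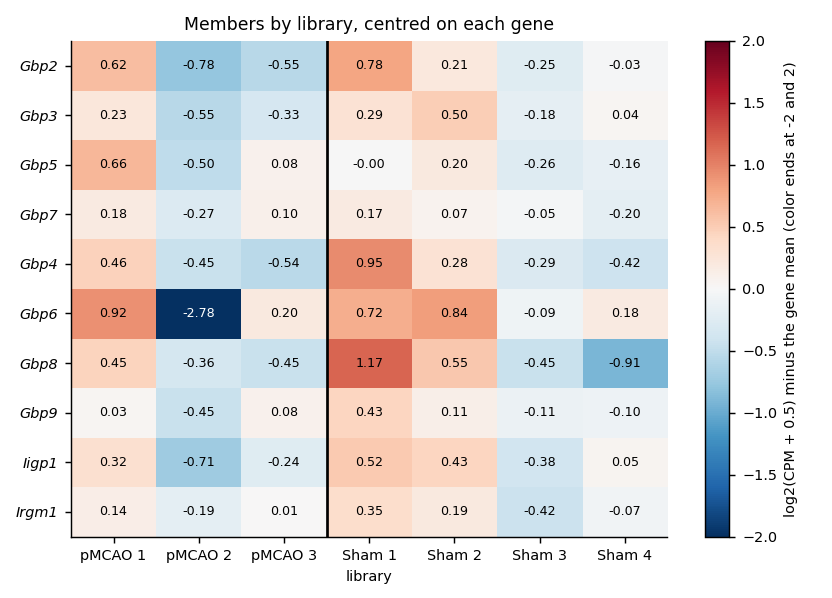
Each member (row) in each library (column) as log2(CPM + 0.5) minus the mean of that gene over the 7 libraries, with pMCAO libraries left of the black line and sham libraries right of it. Values above 0 prevail in pMCAO 1, Sham 1 and Sham 2, and pMCAO 2 is blue in every row, down to -2.78 for Gbp6.

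The spread within the groups was above the median of expressed genes for most members. The SD of log2(CPM + 0.5) had a median over members of 0.50 in the pMCAO group and 0.37 in the sham group, against 0.34 and 0.28 over the 11588 genes of at least 5 CPM and 0.30 and 0.25 over the 7412 genes at the members' mean levels. The biological coefficient of variation from the edgeR fit had a median of 27.6% over members. Its median was 27.1% over genes of at least 5 CPM and 24.4% over the genes at the members' mean levels. Among members it ranged from 19.0% for Gbp7 to 59.6% for Gbp6. Gbp7, Gbp9 and Irgm1 had a low spread after pMCAO (SD 0.24, 0.29 and 0.17), while Gbp6 and Gbp2 had the highest (SD 1.96 and 0.75). In the sham group the most variable were Gbp8 (SD 0.94) and Gbp4 (SD 0.62), which lie in the same block on chromosome 5. The median SD of the 4 chromosome 3 members was 0.49 after pMCAO and 0.25 after sham surgery. That of the 4 chromosome 5 members was 0.52 after pMCAO and 0.53 after sham surgery.

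**Figure D4:**
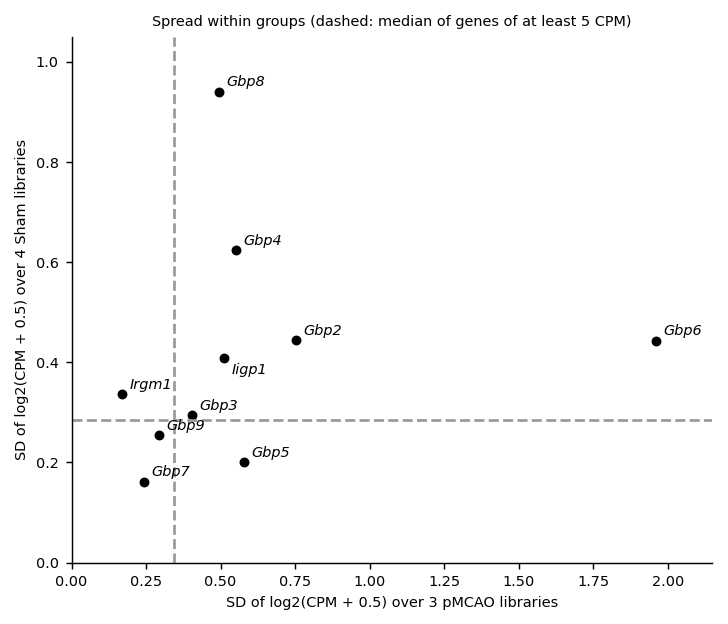
SD of log2(CPM + 0.5) over the 3 pMCAO libraries (horizontal axis) against that over the 4 sham libraries (vertical axis) for each member, with dashed lines at the medians over genes of at least 5 CPM (0.34 and 0.28). Gbp6 lies far to the right at 1.96 and Gbp8 at the top at 0.94, and only Gbp7 and Gbp9 lie under both lines.

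Divided by exon length (all annotated exons of a gene, merged), the level per kilobase gave nearly the same order in both groups. Gbp7 led with 41.4 ± 6.65 CPM per kilobase after pMCAO (SD, n = 3) and 41.1 ± 4.56 after sham surgery (SD, n = 4), and in neither group did its libraries overlap those of the next member. Gbp3 came next with 15.9 ± 4.67 and 20.5 ± 4.18 CPM per kilobase in pMCAO and sham libraries. Irgm1, Gbp9, Gbp2 and Iigp1 followed at group means of 10.6 to 16.9 CPM per kilobase, with overlapping libraries, and Irgm1 and Gbp9 stood in opposite order in the pMCAO and sham groups. Gbp8 and Gbp4 lay at 5.87 to 8.21, and Gbp5 and Gbp6 were the lowest at 2.02 to 3.53 CPM per kilobase. The place of Gbp6 is uncertain, because 64.5% of its 100-base transcript windows recur in other genes. Neighbours in the order below Gbp3 overlapped in both groups, except for Gbp4 and Gbp5, whose sham libraries did not. Gbp7 alone made up 32.9% to 39.0% of the family's CPM in pMCAO libraries and 29.3% to 38.6% in sham libraries.

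Likeness between members was measured as the root mean square difference of their centred log2 levels over the 7 libraries. The most alike pairs were Gbp3 and Iigp1 (0.14), Gbp7 and Gbp9 (0.14) and Gbp9 and Irgm1 (0.17), each on different chromosomes. Without Gbp6, the 9 pairs on the same chromosome had a median difference of 0.29 and the 27 pairs on different chromosomes one of 0.30. Iigp1 lay nearest to the mean profile of the family (0.11), and Gbp6 (0.86) and Gbp8 (0.42) lay farthest from it. Among 11578 other genes of at least 5 CPM the nearest to that mean were Pdcd6 (0.12), Trub2 (0.13), Esco2 (0.13), Zfp287 (0.14) and Htr2b (0.15). None of these 5 is in the lists of interferon pathway genes used here, but those lists hold few of the genes compared. The log2 changes of these 5 ran from -0.45 (Esco2) to -0.05 (Htr2b).

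The ligand, the receptor and other genes of the pathway were read from the same fit. Ifng, which encodes interferon-gamma itself, was at 0.427, 7.72 and 2.41 CPM in pMCAO 1 to 3, and 6.67, 4.95, 1.06 and 1.70 CPM in Sham 1 to 4. Its highest level was in pMCAO 2, the library with the lowest family sum, and its lowest in pMCAO 1, the pMCAO library with the highest. That lowest value came from 5 reads. In the sham group the order was the other way, as Ifng and the family sum were both higher in Sham 1 and Sham 2 than in Sham 3 and Sham 4. The log2 change of Ifng was -0.01 (SE 0.81, edgeR adjusted p = 0.997). It was -2.04 in the authors' deposited table (FDR 0.301), so the size of the change differed widely between the 2 fits and neither called it. Of 10 measured genes of interferon-gamma signalling (Socs1 was not analysed here) 0 passed by edgeR, DESeq2 or limma-voom, with a median log2 change of -0.22, and 3 of 10 had an unadjusted p under 0.05 by edgeR, against 13.4% of all genes. Ifngr2, the signalling chain of the receptor, was at 91.5, 99.5 and 64.0 CPM in pMCAO 1 to 3, and 104, 147, 136 and 151 CPM in Sham 1 to 4. Its libraries did not overlap, but the adjusted p was 0.192 by edgeR (log2 change -0.66, SE 0.20). Irf8, a transcription factor of the macrophage lineage, did not overlap either (log2 change -0.43, SE 0.16, edgeR adjusted p = 0.277). Together 2 of the 10 genes lay lower with no overlap, where 6.58% of all genes did.

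**Figure D5:**
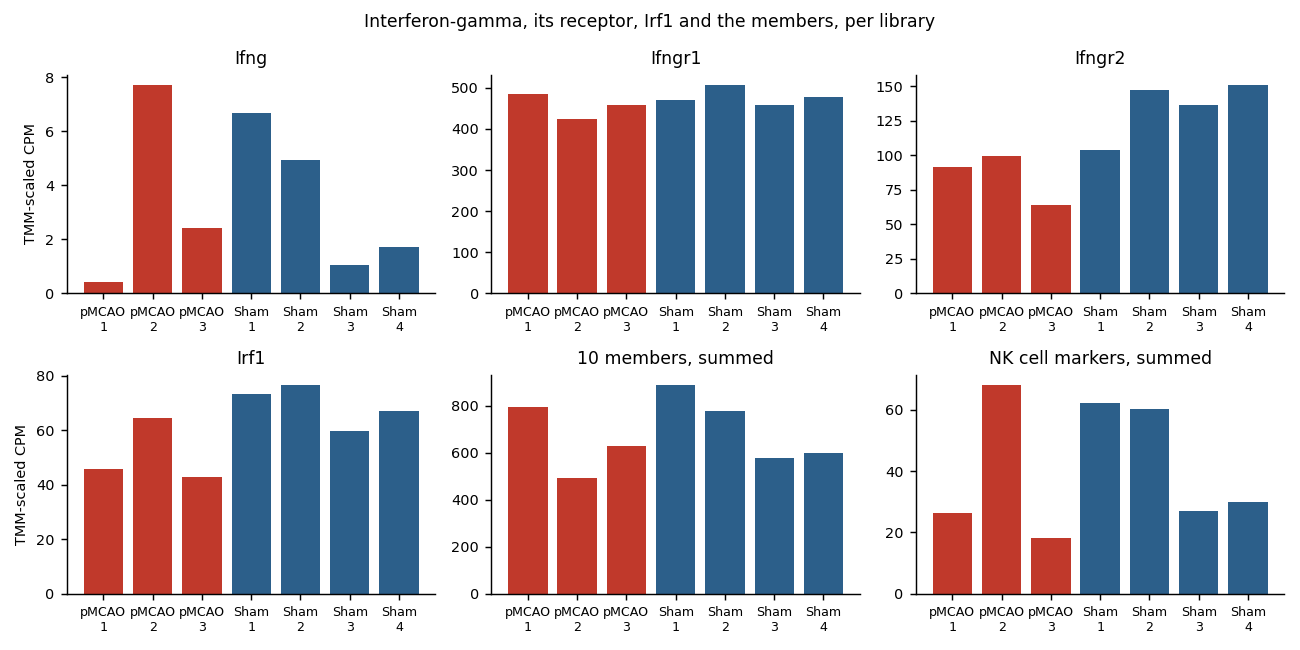
TMM-scaled CPM (vertical axes, from 0) of Ifng, the receptor chains Ifngr1 and Ifngr2, the transcription factor Irf1, the sum of the 10 members and the sum of the NK cell markers, in pMCAO libraries (red) and sham libraries (blue). Ifng and the NK cell markers are highest in pMCAO 2 (7.72 and 68.0 CPM), where the sum of the members is lowest (493 CPM). Ifng, the NK cell markers and the sum of the members are all higher in Sham 1 and Sham 2 than in Sham 3 and Sham 4.

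For relatives of the members that also respond to interferon-gamma the fitted changes were mostly negative, none past the threshold by edgeR. Of 9 measured relatives (Gbp10 and Gbp11 were not analysed here) 0 passed by edgeR and limma-voom and 1 by DESeq2. DESeq2 called 2.97% of the genes with an adjusted p. Of these relatives 8 of 9 had a lower fitted level, as had 51.4% of all genes, and the median log2 change was -0.55 (-0.34 for the members). At an unadjusted p under 0.05 by edgeR there were 5 of 9, against 13.4% of all genes. Counts of Igtp and Irgm2, which overlap, and of the near copies Tgtp1 and Tgtp2 are uncertain. Gm12250, whose RefSeq synonym is Irgb10, was at 9.998, 6.83 and 8.13 CPM in pMCAO 1 to 3, and 16.01, 15.6, 15.7 and 20.9 CPM in Sham 1 to 4. All pMCAO values lay below all sham values (log2 change -1.04, SE 0.30, edgeR adjusted p = 0.184), and it was the relative that DESeq2 called, with an adjusted p of 0.0348. The authors' deposited table gave this gene a log2 change of -0.81 with an FDR of 0.400. Gbp2b, the neighbour of Gbp3 and Gbp2, was at 13.4, 11.8 and 15.9 CPM in pMCAO 1 to 3, and 48.5, 26.4, 17.3 and 14.8 CPM in Sham 1 to 4. Sham 1 was again the highest library (log2 change -0.96, SE 0.38, edgeR adjusted p = 0.287), and pMCAO 1 did not exceed pMCAO 3 as it did for its neighbours Gbp2 and Gbp3.

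Of 13 other measured targets of interferon-gamma (Acod1, Cxcl11 and Il12rb1 were not analysed here) 1 fell and 0 rose by edgeR, where 0.0291% of all genes fell, and the median log2 change was -0.57. The gene that fell was Ciita, the master regulator of MHC class II genes, at 73.5, 73.1 and 81.2 CPM in pMCAO 1 to 3, and 173, 152, 145 and 165 CPM in Sham 1 to 4. Its libraries were far apart and even within each group (log2 change -1.06, SE 0.17, edgeR adjusted p = 0.0240), whereas no member had separate groups. The direction held in every setting tried, but the adjusted p was 0.187 without pMCAO 1, 0.0541 without pMCAO 3, 0.0982 without Sham 4 and 0.0554 once the Y-linked level was a term of the model. Ciita was not called in the authors' deposited table either, where its log2 change was -0.97 with an FDR of 0.1575. Fcgr1, a high-affinity receptor for IgG, had the next smallest p (log2 change -0.77, SE 0.21, edgeR adjusted p = 0.149) and was called lower by DESeq2 (adjusted p under 0.05). Of the 10 autophagy genes whose products guide GTPases to membranes 0 passed by edgeR, DESeq2 or limma-voom (median -0.10, 0 with an unadjusted p under 0.05), and the smallest p values were those of Atg5 (log2 change 0.49, edgeR adjusted p = 0.391) and Gabarap (-0.28, edgeR adjusted p = 0.593). Of the 6 inflammasome partners 0 passed by the same tools (median -0.01, 1 with an unadjusted p under 0.05 by edgeR), and the smallest p values were those of the adaptor Pycard (log2 change -0.65, edgeR adjusted p = 0.296) and the DNA sensor Aim2 (0.23, edgeR adjusted p = 0.6002).

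Levels of markers of other cells differed between libraries too. The 5 measured NK cell markers summed to 26.4, 68.0 and 18.1 CPM in pMCAO 1 to 3, and 62.1, 60.3, 27.0 and 30.0 CPM in Sham 1 to 4. All 8 T cell markers were detected, at 105 to 114 CPM after pMCAO and 114 to 199 CPM after sham surgery, of which Cd4, also expressed by macrophages, made up 78.1 to 87.5 CPM after pMCAO and 70.9 to 144 CPM after sham surgery. The 4 B cell markers summed to 72.6, 50.4 and 58.1 CPM in pMCAO 1 to 3, and 147, 95.7, 53.1 and 42.8 CPM in Sham 1 to 4. The 5 monocyte markers summed to 1172, 1106 and 598 CPM in pMCAO 1 to 3, and 1390, 687, 560.2 and 587 CPM in Sham 1 to 4. The sums of monocyte, B cell and dendritic cell markers were each highest of their group in pMCAO 1 and Sham 1, as were most members. The monocyte sum was not lowest in pMCAO 2, however, and Ccr2, its largest part, was at 970 CPM there and 847 CPM in pMCAO 1. All 8 blood endothelial markers had a higher fitted level after pMCAO (354 to 491 CPM summed, against 116 to 308 CPM after sham surgery), as had all 7 fibroblast markers (104 to 532 CPM, against 52.9 to 163 CPM). None of the markers passed the test by edgeR. DESeq2, which called 2.97% of the genes with an adjusted p, called 3 endothelial and 2 fibroblast markers higher. It also called the macrophage markers C1qa, C1qb, C1qc and Fcgr1 lower. Of endothelial, fibroblast and macrophage markers limma-voom called none. The fitted changes of the 12 macrophage markers went in both directions. After pMCAO 4 were higher, Lyve1 (log2 change 0.78), Cd163 (0.56), Mertk (0.54) and Mrc1 (0.04), and the others were lower. At an unadjusted p under 0.05 by edgeR there were 8 of 12, against 13.4% of all genes. Of the mitochondrial ribosomal RNAs mt-Rnr2 was called higher by DESeq2 (adjusted p = 1.66e-06), and mt-Rnr1 and mt-Rnr2 by limma-voom, with a smallest adjusted p of 0.00980, while edgeR gave mt-Rnr2 an adjusted p of 0.0504. Dendritic cell markers summed to 59.6 to 80.6 CPM after pMCAO and 57.0 to 82.8 CPM after sham surgery, and smooth muscle markers to 74.2 to 152 CPM and 69.0 to 212 CPM in the same order. The 3 measured large peritoneal macrophage markers (Gata6 and Serpinb2 were not analysed here) summed to 79.8 to 85.1 CPM after pMCAO and 60.1 to 87.6 CPM after sham surgery, and the 2 glial ones to 1.70 to 5.81 CPM and 0.807 to 1.80 CPM. No marker of NK, T, B, endothelial or fibroblast cells was at 0 in any library, while 0 of 4 adipocyte markers were listed. The part of other cells and of the mitochondrial RNA share in the members' values was not tested.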

How the data were processed

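RNA-seq of 7 libraries was used, 3 after pMCAO and 4 after sham surgery, grouped and numbered by their titles. Libraries were built from 2.0 ng of RNA with the Trio kit and ribosomal RNA cleavage and read as pairs, per the labels' protocols. The authors deposited read counts per gene; STAR, featureCounts and GRCm38 (mm10) are named per the submitters' processing notes. Strandedness and annotation release were not given in the sources used here. The deposited CPM values equal the count over the library total within 0.0005. The log2 fold changes, p-values and FDR in the deposited table are the authors', with limma named in the processing notes. Each listed gene passes 0.5 CPM in 4 or more of the 7 libraries, and all members are listed, so none was lost to a filter on low values. No column lacked a sample.

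From the counts, edgeR 4.0.16 in R 4.3.3 was run over all 17209 genes (TMM factors, robust quasi-likelihood F test, group as the only term, two-sided, Benjamini-Hochberg adjustment, threshold 0.05). The edgeR expression filter removed no gene. The SE is the size of the log2 change over the square root of F. SDs were taken on log2(CPM + 0.5). A count of 3 equals 0.0825 to 0.256 scaled CPM, for counting error only, since no molecular identifiers are named and reads may be copies. Other settings were RLE factors, no scaling, no filter, genes of at least 5 CPM, DESeq2 1.42.0, limma-voom (limma 3.58.1), a replicate block and each library left out in turn. A Y-linked covariate was added after seeing the data. Of the gene IDs 99.52% matched GENCODE M21 (GRCm38), used for positions, exon lengths and shared transcript windows of 100 bases. Promoter windows came from RefSeq (GRCm38.p6). All members were named, plus, in each pathway list, the called genes and the 2 with the smallest p, and the 5 genes most like the mean of the members; Ifng and the sex-linked and single-library genes were added after their values were seen. Members and lists were chosen with earlier results of these data known. The values of 1 pathway gene are not reported here. The script was tested on simulated counts.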

Additional observations from a re-analysis of the deposited data

Results flagged for a closer look

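In the sham group Gm12250 had 1 library far from the others, Sham 4 at 20.9 CPM, against 15.6 to 16.01 CPM in Sham 1 to 3. The gap took up a share of 0.925 of the group's range, above the Dixon limit at 95% for 4 samples. It was 1 of 27 sham groups checked, and chance passes this limit in about 1 of 20 groups. All pMCAO values (6.83 to 9.998 CPM) lay below all sham values, and leaving out Sham 4, the highest, could not change that.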

How the results depend on the processing

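None of the 10 members was called in any of the 15 other settings, and their smallest adjusted p was 0.327 by edgeR (Gbp2 without pMCAO 1). The setting without a filter repeats the main fit, since the edgeR filter removed no gene, so its values could not differ. At an unadjusted p under 0.05 there were 3 members without pMCAO 1 (Gbp2, Gbp3 and Iigp1), 1 without scaling factors (Gbp3) and 0 elsewhere. The sign held in 136 of 150 member values. For Gbp7 it turned without scaling factors (-0.12, with the median of all genes at -0.15 instead of -0.02), with limma-voom (-0.0006) and with the replicate block (-0.064). With a library left out the log2 change ran from -0.91 to -0.084 for Gbp2, -0.63 to -0.21 for Gbp3, -0.29 to -0.040 for Gbp9, -0.66 to -0.13 for Iigp1, -0.73 to 0.0054 for Gbp4, -0.14 to 0.45 for Gbp5, -1.15 to 0.14 for Gbp6, -0.082 to 0.14 for Gbp7, -0.73 to 0.079 for Gbp8 and -0.17 to 0.073 for Irgm1. Genes called over all genes were 17, against 29 without scaling factors (14 higher and 15 lower), 76 among genes of at least 5 CPM, 470 with DESeq2, 35 with limma-voom, 9 with the Y-linked covariate and 0 (without pMCAO 1, with 1987 genes at an unadjusted p under 0.05) to 100 (without pMCAO 2) with a library left out. Fewer genes and fewer libraries entered the 5 CPM and left-out fits; otherwise the cause was not tested.

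Same-numbered libraries did not deviate together (correlations -0.0952, 0.00524 and 0.15), so the numbers were not taken as pairs. With the replicate block and without Sham 4, 21 genes and 0 members were called, against 9 genes without the block; Gbp6 was at -0.92, and Ciita lost its call (edgeR adjusted p = 0.0820). The low reads of Gbp6 in pMCAO 2 limit what its interval can show.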
